A study of Homo sapiens with 6 samples.

Results

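The genes described here are ASNS and GPT2, which encode enzymes of amino acid synthesis, and 8 amino acid transporter genes of the plasma membrane: SLC3A2, SLC7A5, SLC7A11, SLC7A1, SLC1A5, SLC1A4, SLC38A1 and SLC38A2. They were taken by symbol from a deposited table of 19571 genes, which held all 10, and all 10 had a mean of at least 1 FPKM (fragments mapped to a gene, corrected for transcript length and sequencing depth). RNA was sequenced from LNCaP, a human prostate cancer line that responds to androgen. The KDM4B-labelled libraries (replicates 1, 2 and 4) came from cells that stably overexpressed Flag-tagged KDM4B, a histone lysine demethylase, and the vector controls (replicates 1, 2 and 3) from cells that stably carried the plenti6 control plasmid. Cells of both groups were grown with 10% FBS, and then spent 3 days in 10% CFBS until harvest (the labels do not spell out CFBS). The labels do not say whether each group was 1 clone or whether the replicates were separate cultures, so the p-values reflect the spread between these samples alone, which may be technical.

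Each cell takes up amino acids through transporters with different substrates. SLC3A2 (CD98) is the heavy chain that carries light chains to the cell surface, among them SLC7A5 (LAT1, which exchanges large neutral amino acids such as leucine) and SLC7A11 (xCT, which imports cystine in exchange for glutamate). SLC7A1 imports arginine and lysine, SLC1A5 and SLC1A4 exchange small neutral amino acids, with glutamine carried by SLC1A5, and SLC38A1 and SLC38A2 take up glutamine and other neutral amino acids together with sodium. ASNS makes asparagine from aspartate and glutamine, and GPT2 is the mitochondrial alanine aminotransferase. When amino acids run short, or when protein folding in the endoplasmic reticulum is disturbed, phosphorylation of eIF2 favours translation of the transcription factor ATF4. ATF4 binds together with C/EBP proteins to amino acid response elements, and ASNS and several of these transporter genes are textbook targets.

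The letters around the gene starts are shown because the core of that element, TGATGNAA, was searched on both strands of the RefSeq windows of build GRCh38.p14, which reach from 250 bases before to 50 bases after each start. Of the 10 genes, 8 had windows, 15 in all; GPT2 and SLC7A11 are named only. The core was present in 6 of the 15 windows and in 6 of the 8 genes, against 3.62% of 35116 windows and 4.46% of 27305 genes over the whole table. In the lines below each match is in capitals with up to 10 bases on each side, 5′ to 3′ in the direction of the gene:
ASNS, chr7:97872459-97872486, minus strand: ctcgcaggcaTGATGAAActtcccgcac
SLC1A5, chr19:46784894-46784921, minus strand: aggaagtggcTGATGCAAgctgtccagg
SLC1A4, chr2:64989382-64989409, plus strand: cggctcccgtTTGCATCAtctccagccg
SLC38A1, chr12:46266503-46266530, minus strand: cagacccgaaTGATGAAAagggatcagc
SLC7A1, chr13:29595664-29595691, minus strand: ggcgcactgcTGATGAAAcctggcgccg
SLC3A2, chr11:62881726-62881748, plus strand: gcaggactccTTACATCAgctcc
The first base of the match lay 68 bases before the start in ASNS, 97 before it in SLC1A5, 7 before it in SLC1A4 and 4 before it in SLC38A1. In SLC7A1 it lay 7 bases after the start and in SLC3A2 37 bases after it. The matches in SLC1A4 and SLC3A2 read on the opposite strand. Genes with several starts have several windows: SLC1A5 and SLC3A2 had 3, and ASNS, SLC1A4 and SLC38A1 had 2, of which 1 held the match and gives the start used here. The windows of SLC7A5 and SLC38A2 did not hold these letters. A different motif, the palindromic E-box CACGTG, was in windows of SLC7A5 and SLC1A5. These were 2 of the 15 windows and 2 of the 8 genes, against 7.26% of all windows and 8.77% of all genes. The match is shown for SLC7A5 because its level went the other way from its neighbours, although SLC1A5 was lower:
SLC7A5, chr16:87869622-87869647, minus strand: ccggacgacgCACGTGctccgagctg
That match began 130 bases before the start. The antioxidant response element core TGACNNNGC was in windows of SLC3A2, SLC7A1, SLC7A5 and SLC1A5. These were 4 of the 15 windows and 4 of the 8 genes, against 13.3% of all windows and 16.1% of all genes. The SLC7A5 match to this core lay apart from the E-box. These matches describe letters in a window and do not show binding. Whether any of these motifs bears on the direction of a gene was not tested.

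Facts of the series that touch every value below come first. KDM4B itself measured 26.3, 27.2 and 25.8 FPKM in KDM4B-labelled libraries and 24.7, 25.2 and 25.3 FPKM in vector controls, a log2 fold change of 0.07 with an adjusted p of 0.113 by limma, short of the threshold. With median-of-ratios scaling, which divides each library by the median ratio of its genes to their geometric mean, the KDM4B difference was 0.29 (limma, adjusted p = 2.86e-05). The libraries are therefore called by their label, on which every direction rests. Ribosomal RNA genes took 8.14% to 10.5% of the FPKM sum in KDM4B-labelled libraries and 0.14% to 0.47% in vector controls, and over the 12148 tested genes the log2 fold change had a median of -0.22 as deposited and -0.01 after scaling. A suffix shared by the titles of the KDM4B-labelled libraries is missing from the vector titles, and if it marks a batch, that batch and the group cannot be told apart. All 10 LNCaP markers were above 1 FPKM, although their sum was 1735 to 1804 FPKM in KDM4B-labelled libraries and 4324 to 4508 FPKM in vector controls. Of 12 markers of leukocytes, endothelium, fibroblasts and basal cells 9 were in the table and 2 reached 1 FPKM; their sums were 5.24 to 5.57 FPKM in KDM4B-labelled libraries and 5.59 to 6.19 FPKM in vector controls, and none of the 9 was at 0 in all libraries. The part of either marker list in the results was not tested. Skipped exon events held 14212396 to 14787321 reads in KDM4B-labelled libraries and 16451082 to 17021204 in vector controls, and the relative depth, taken from reads per FPKM of 6665 genes, was 0.974 to 1.02.

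The question of the comparison is how the expression of these genes differed between cells labelled KDM4B and vector cells. Of the 10 genes, 9 were lower and SLC7A5 was higher in KDM4B-labelled libraries (limma on log2(FPKM + 1), two-sided, Benjamini-Hochberg adjusted p below 0.05 over all tested genes). In the same fit 60.3% of all tested genes were lower and 13.4% higher, so the count of lower genes alone says little about these genes. Their size said more: 7 of the 10 were at least 2-fold lower on the log2(FPKM + 1) scale (-1 or below), as were 3.42% of all tested genes, and their median log2 fold change was -1.04 against -0.22 for all tested genes. After scaling, 8 of the 10 were lower, SLC7A5 was higher and SLC38A2 did not pass, where 35.5% of all genes were lower and 32.5% higher. The groups did not overlap for 9 lower genes and 1 higher gene as deposited, against 61.7% and 14.6% of all tested genes, and for 8 and 1 after scaling, against 37.4% and 34.3%. The scaled median of the 10 genes was -0.81 against -0.01 for all tested genes, and 2 of the 10 (ASNS and SLC7A11) were at least 2-fold lower on that log2 scale, against 2.03% of all tested genes. SLC1A5 (-0.99) and SLC1A4 (-0.97) fell just short there, although their scaled FPKM means were 51.7 and 4.56 in KDM4B-labelled libraries, against 104 and 9.94 in vector controls. No member was at least 2-fold higher on either scale, where 1.25% of tested genes were as deposited and 1.74% after scaling. The genes were proposed with earlier results of these data in view, so neither count is independent support for a shared direction. In bulk RNA, fewer cells with a transcript and less transcript per cell cannot be told apart.

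**Figure D1:**
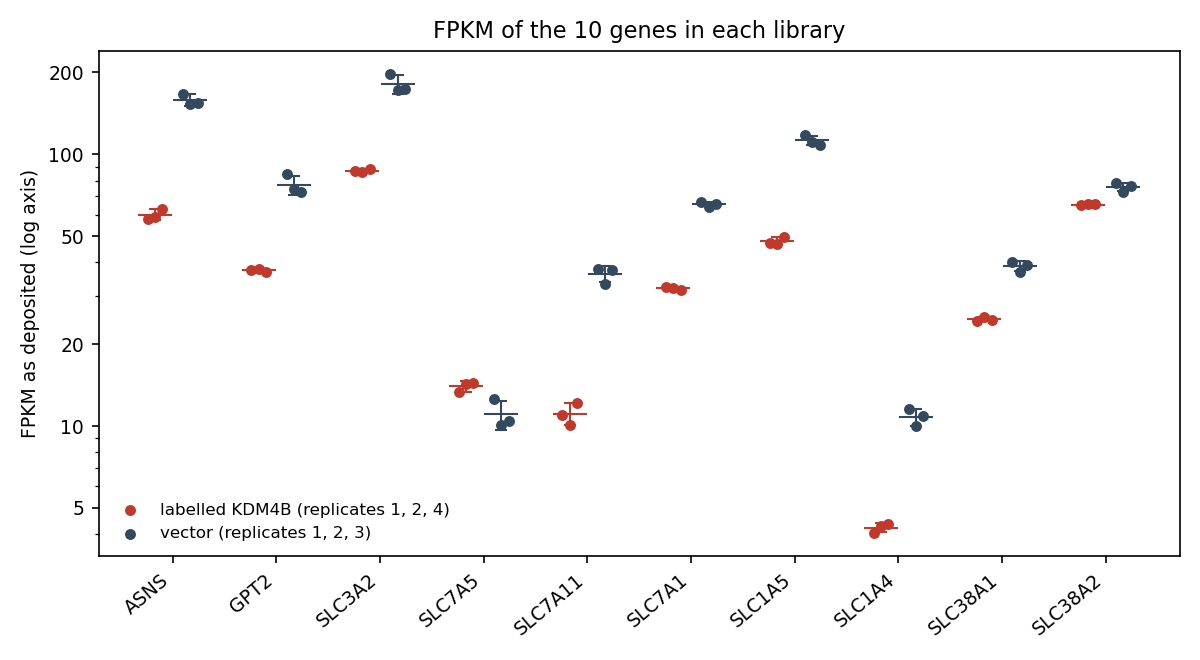
FPKM as deposited (log axis) of the 10 genes in KDM4B-labelled libraries (red, left of each pair) and the vector controls (dark, right); points are libraries, bars are the mean and SD (n = 3 each). For 9 genes all red points lie below the dark ones; for SLC7A5 all 3 red points (13.3 to 14.4 FPKM) lie above the dark ones (10.1 to 12.6 FPKM).

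The enzyme genes both fell. ASNS (gene 440), which makes asparagine at the expense of glutamine, measured 57.7, 58.8 and 63.0 FPKM in KDM4B-labelled libraries and 167, 153 and 154 FPKM in vector controls. Every KDM4B-labelled library was below every vector library, by a mean of 2.64-fold. The log2 fold change of ASNS was -1.39 (SE 0.046; limma, adjusted p = 5.06e-10), and -1.16 after scaling, where only 1.29% of tested genes had a lower value. GPT2 (84706), which makes alanine and alpha-ketoglutarate from pyruvate and glutamate in mitochondria, measured 37.4, 37.8 and 36.9 FPKM in KDM4B-labelled libraries and 84.3, 74.6 and 72.3 FPKM in vector controls. The groups did not overlap, and the log2 fold change was -1.02 (SE 0.053; limma, adjusted p = 1.39e-08) or -0.80 after scaling. Its cytosolic counterpart GPT was at 2.64 FPKM in KDM4B-labelled libraries and 2.84 FPKM in vector controls, a difference that missed the threshold (limma, adjusted p = 0.364). The reads of its most-read skipped exon event were lower, however, with a log2 fold change of -0.65 (edgeR, adjusted p = 4.83e-07), against -0.83 for GPT2, so the measures of GPT differ in their call. Whether GPT and GPT2 differed in their response was not tested.

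The genes of the CD98 heterodimers went apart. The heavy chain SLC3A2 (6520) had the highest level of the 10 genes in both groups, with 86.8, 85.7 and 88.4 FPKM in KDM4B-labelled libraries and 198, 173 and 173 FPKM in vector controls. Its log2 fold change was -1.05 (SE 0.050; limma, adjusted p = 7.82e-09), or -0.82 after scaling. The cystine importer SLC7A11 (23657) fell most among the 10 genes, with 10.99, 10.1 and 12.2 FPKM in KDM4B-labelled libraries and 37.8, 33.4 and 37.6 FPKM in vector controls. Its vector mean was 3.27 times its mean in KDM4B-labelled libraries, and the log2 fold change was -1.63 (SE 0.067; limma, adjusted p = 2.41e-09), or -1.41 after scaling. The antisense RNA SLC7A11-AS1 overlaps this gene on GRCh38 and was listed at 0.27 to 0.37 FPKM in KDM4B-labelled libraries and at 0.65 to 0.78 FPKM in vector controls; the sources used here do not give whether counting used strand.

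SLC7A5 (8140), the leucine exchanger LAT1, was the exception. It measured 13.3, 14.3 and 14.4 FPKM in KDM4B-labelled libraries and 12.6, 10.1 and 10.4 FPKM in vector controls. Its lowest value in KDM4B-labelled libraries stood only slightly above that of vector replicate 1, which was the highest vector library. The log2 fold change was 0.32 (SE 0.071; limma, adjusted p = 0.00152), and it grew to 0.53 after scaling (adjusted p = 8.39e-05). With 1 library left out at a time it ran from 0.27 (without vector replicate 2) to 0.41 (without vector replicate 1). Of all tested genes, 94.0% had a lower log2 fold change. SLC7A5 has pseudogenes whose reads could be split with it: SLC7A5P2 was at 3.62 to 4.39 FPKM in KDM4B-labelled libraries and 3.66 to 4.18 FPKM in vector controls, and SLC7A5P1 was at 1.31 to 1.80 FPKM in KDM4B-labelled libraries and 0.91 to 1.70 FPKM in vector controls. Both pseudogenes overlapped between the groups, and the SLC7A5 level is uncertain to the extent that reads were shared.

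SLC7A1 (6541), the arginine and lysine importer CAT1, had the smallest spread of the 10 genes between vector libraries (coefficient of variation 2.02%). It measured 32.4, 32.2 and 31.7 FPKM in KDM4B-labelled libraries and 66.8, 64.2 and 65.6 FPKM in vector controls, a log2 fold change of -1.01 (SE 0.036; limma, adjusted p = 8.93e-10) and -0.78 after scaling. The neutral amino acid exchangers fell by similar amounts from very different levels. SLC1A5 (6510), the glutamine transporter ASCT2, measured 47.2, 46.8 and 49.6 FPKM in KDM4B-labelled libraries and 118, 111 and 109 FPKM in vector controls (log2 fold change -1.22, SE 0.042; limma, adjusted p = 6.07e-10; -0.99 after scaling). SLC1A4 (6509), its relative ASCT1, measured 4.04, 4.29 and 4.35 FPKM in KDM4B-labelled libraries and 11.5, 9.99 and 10.9 FPKM in vector controls (log2 fold change -1.17, SE 0.058; limma, adjusted p = 1.15e-08; -0.97 after scaling). In neither gene did the groups overlap.

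Among these genes, the SLC38 transporters fell less as deposited than the others that fell. SLC38A1 (81539) measured 24.4, 25.2 and 24.5 FPKM in KDM4B-labelled libraries and 40.1, 37.0 and 39.2 FPKM in vector controls, without overlap (log2 fold change -0.63, SE 0.042; limma, adjusted p = 1.27e-07; -0.41 after scaling). SLC38A2 (54407) measured 64.8, 65.4 and 65.5 FPKM in KDM4B-labelled libraries and 78.4, 72.9 and 76.5 FPKM in vector controls. As deposited its log2 fold change was -0.21 (SE 0.038; limma, adjusted p = 0.000296), close to the median of all tested genes. After scaling the groups overlapped, at 69.0 to 71.2 in KDM4B-labelled libraries and 66.9 to 72.5 in vector controls, and the difference was 0.01 (95% interval -0.07 to 0.09; limma, adjusted p = 0.800). Whether SLC38A2 was called lower therefore depended on the scale of the libraries. The direction of the other 9 genes did not.

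**Figure D2:**
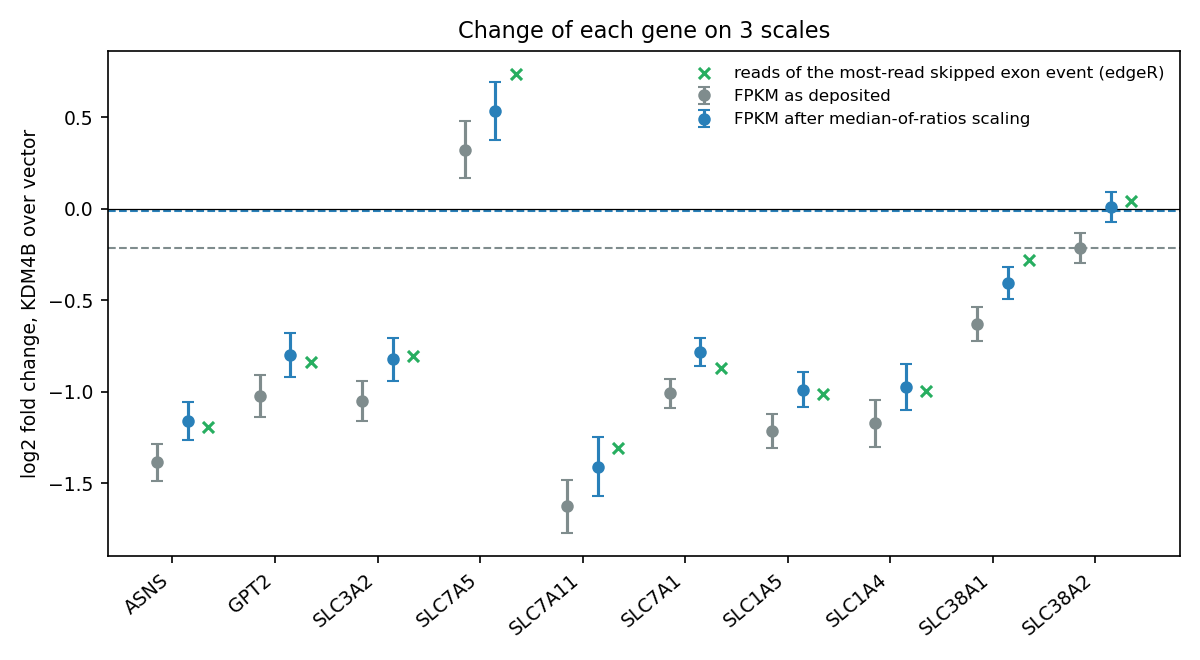
Log2 fold change of each gene, KDM4B-labelled over vector libraries, from FPKM as deposited (grey) and after median-of-ratios scaling (blue), with 95% intervals, and from reads of the gene's most-read skipped exon event (green crosses). Dashed lines are the medians of all tested genes (-0.22 grey, -0.01 blue). SLC7A5 lies above 0 on all 3 scales, SLC38A2 at the median of all genes, and the other 8 genes below both medians.

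The order of the levels, which FPKM allow because they are per length, differed between the groups. In the KDM4B-labelled libraries the means ran from SLC3A2 (86.95 FPKM) over SLC38A2 (65.2), ASNS (59.8), SLC1A5 (47.9), GPT2 (37.4), SLC7A1 (32.1), SLC38A1 (24.7), SLC7A5 (14.0) and SLC7A11 (11.1) to SLC1A4 (4.23), and no neighbours in this order overlapped in their ranges. In the vector controls the order was SLC3A2 (181 FPKM), ASNS (158), SLC1A5 (113), GPT2 (77.1), SLC38A2 (75.9), SLC7A1 (65.5), SLC38A1 (38.8), SLC7A11 (36.3), SLC7A5 (11.03) and SLC1A4 (10.8). There GPT2 and SLC38A2, SLC38A1 and SLC7A11, and SLC7A5 and SLC1A4 overlapped. SLC38A2 thus stood above ASNS, SLC1A5 and GPT2 in every KDM4B-labelled library, while ASNS and SLC1A5 stood above it in every vector library. Summed over the 10 genes, the level was 383 ± 6.21 FPKM in KDM4B-labelled libraries and 767 ± 40.8 FPKM in vector controls (SD, n = 3 each).

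Ratios of FPKM within a library do not move with the scaling of the library. In this way 5 pairs of transporter genes were compared. The tests used differences of log2(FPKM + 1), which, unlike the ratios, can move with that scaling. An exact two-sided permutation test of 3 against 3 libraries cannot give a p below 0.1, so none of the 5 ratios could pass the threshold, and the smallest p adjusted over the 5 was 0.125. SLC7A5 over its heavy chain SLC3A2 was 0.153, 0.167 and 0.163 in KDM4B-labelled libraries and 0.064, 0.058 and 0.060 in vector controls, a difference of 1.37 on the log2(FPKM + 1) scale (exact permutation p = 0.1). There was thus more SLC7A5 transcript per SLC3A2 transcript in every KDM4B-labelled library than in any vector library. The other light chain among these genes went the other way. SLC7A11 over SLC3A2 was 0.127, 0.118 and 0.138 in KDM4B-labelled libraries and 0.191, 0.193 and 0.217 in vector controls (log2 difference -0.58, exact permutation p = 0.1).

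The groups also stood apart for other pairs. SLC1A5 over SLC7A5 was 3.55, 3.27 and 3.45 in KDM4B-labelled libraries and 9.35, 11.01 and 10.4 in vector controls (log2 difference -1.54, exact permutation p = 0.1). SLC38A2 over SLC38A1 was 2.65, 2.59 and 2.67 in KDM4B-labelled libraries and 1.95, 1.97 and 1.95 in vector controls (log2 difference 0.41, exact permutation p = 0.1). There was no overlap between the groups in these 4 ratios. SLC1A4 over SLC1A5 was 0.086, 0.092 and 0.088 in KDM4B-labelled libraries and 0.098, 0.090 and 0.0999 in vector controls, which overlapped (log2 difference 0.04, exact permutation p = 0.5). The mean of this last ratio was lower in KDM4B-labelled libraries (0.088, against 0.096 in vector controls), although its difference of log2(FPKM + 1) was positive. The sign of that difference changed with the pseudocount, to -0.10 with a pseudocount of 0.1.

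**Figure D3:**
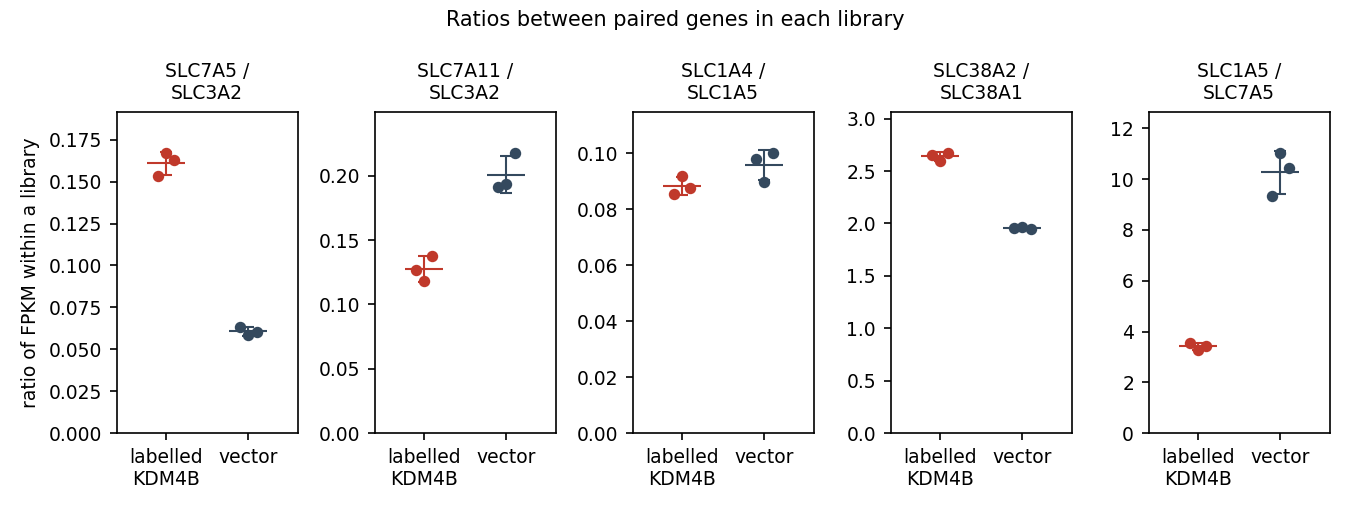
Ratio of FPKM of paired genes within each library labelled KDM4B (red) and each vector library (dark); points are libraries, bars are the mean and SD (n = 3 each), and every axis starts at 0. The groups are apart in 4 panels and overlap for SLC1A4 over SLC1A5.

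Reads of splicing events gave a second view of the same libraries. The deposited tables held 48 skipped exon (SE), 9 mutually exclusive exon (MXE) and 3 alternative 5′ splice site events in the 10 genes. The deposited count of an event does not separate its splice forms, so it follows the level of the gene around that exon. Of the 46 SE events that reached 10 reads in all 6 libraries, 41 were lower and 1 was higher in KDM4B-labelled libraries (edgeR quasi-likelihood test with TMM scaling, adjusted p below 0.05), where 20.2% of all SE events were lower and 20.1% higher. Events of a gene share reads, so these are not 46 separate observations. All 10 events of ASNS were lower, with log2 fold changes between -1.38 and -0.88, as were the 8 of SLC3A2 (-0.80 to -0.55), the 5 each of GPT2, SLC7A1 and SLC38A1, the 4 of SLC7A11 (-1.47 to -1.31) and the 2 each of SLC1A4 and SLC1A5. The 4 events of SLC38A2 lay between -0.04 and 0.11, and none passed the test (0 of 4 also at an unadjusted p below 0.05).

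The only SE event of SLC7A5, around a 104-base exon, had 169, 188 and 153 reads in KDM4B-labelled libraries and 145, 108 and 102 reads in vector controls. Its log2 fold change was 0.74 after TMM scaling (edgeR, adjusted p = 1.61e-05). By contrast the most-read ASNS event had 689, 734 and 781 reads in KDM4B-labelled libraries and 2071, 1842 and 1940 reads in vector controls. Among the most-read events of all genes, 22.9% were lower and 22.8% higher, and of the 10 genes 8 were lower and 1 higher by this measure, with SLC38A2 not passing (log2 fold change 0.04; edgeR, adjusted p = 0.584). The 3 alternative 5′ splice site events all belonged to SLC38A1 and had 198 to 329 reads in KDM4B-labelled libraries and 240 to 478 reads in vector controls; their forms could not be separated.

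**Figure D4:**
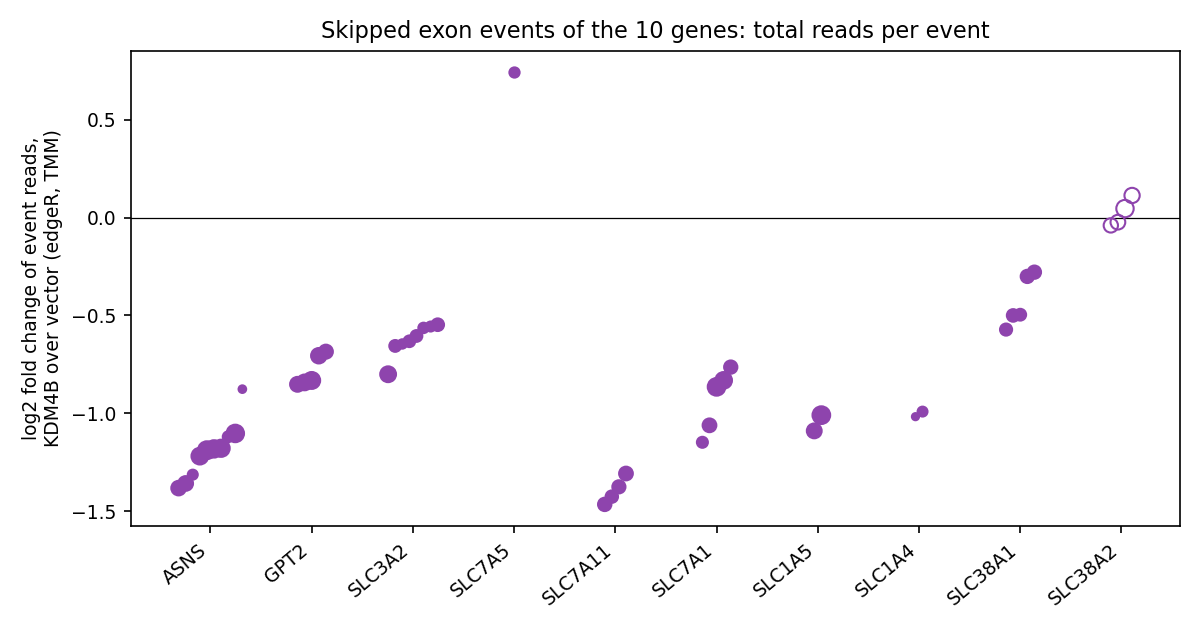
Log2 fold change of the total reads of 46 skipped exon events, KDM4B-labelled over vector libraries; each circle is an event, its area grows with the square root of its mean reads, and filled circles passed the test. Events of a gene lie close together; the single SLC7A5 event is at 0.74 and the 4 open circles are SLC38A2.

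Whether the splice forms themselves differed could be asked only where both forms were recovered, from pairs of SE events and an MXE event between the same flanking exons. That was possible for ASNS, SLC3A2 and SLC7A1. Exons are given by length, because only 1 of the 48 member SE exons lay inside its gene on GRCh38, the build named in the submitters' processing notes, so the build of the deposited positions is uncertain. One 93-base exon of SLC3A2 had 77.8%, 89.8% and 81.9% inclusion reads in KDM4B-labelled libraries and 81.4%, 81.96% and 87.4% in vector controls. The groups overlapped (log2 odds ratio 0.02; edgeR, adjusted p = 0.987). A 36-base exon of ASNS had 87.2%, 94.6% and 84.5% inclusion reads in KDM4B-labelled libraries and 89.8%, 93.4% and 91.5% in vector controls (log2 odds ratio -0.42; edgeR, adjusted p = 0.696). Skipping reads there were few, at 11, 6 and 17 in KDM4B-labelled libraries and 30, 15 and 22 in vector controls.

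None of the 5 SE events of these genes passed the form test (0 of 5 by edgeR, 0 of 5 at an unadjusted p below 0.05 and 0 of 5 by DESeq2), where 5.5% of 1346 tested SE events did. Of the 4 MXE events, which compare reads of both exons, 0 passed by edgeR and by DESeq2, where edgeR called 1.63% of 2997. The tested SE events of a gene share their skipping reads, and the MXE events reuse inclusion reads of SE events. These tests are therefore not separate observations. The 1 MXE event with an unadjusted edgeR p below 0.05 was that of SLC7A1, with 85.0%, 86.2% and 86.8% of its reads on the 384-base exon rather than the 100-base exon in KDM4B-labelled libraries, and 82.5%, 83.1% and 83.7% in vector controls. These shares did not overlap, but the adjusted p was 0.275 (edgeR, log2 odds ratio 0.32). SLC7A1 had 0 skipping reads in every library except vector replicate 3, which had 1. On simulated data the SE form test recovered 41.0% of log2 odds ratios of 2, so smaller shifts were mostly not detectable at this depth.

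Vector replicate 1 was the highest vector library for all 10 genes, while over all tested genes it was the highest for 33.0%. It also had the largest ribosomal RNA share of the vector controls (0.47%, against 0.14% and 0.15%). In the KDM4B-labelled libraries that share was largest in replicate 1 (10.5%, against 8.14% in replicate 2 and 10.2% in replicate 4). Replicate 4 was the highest there for 7 of the 10 genes, against 28.9% of all tested genes. The spread this gives is small beside the group differences of the 8 genes that fell on both scales: without vector replicate 1 again 9 genes were lower and 1 was higher, and the log2 fold change of SLC3A2 was -0.98, that of GPT2 -0.96 and that of ASNS -1.35. Within the vector group the coefficient of variation ran from 2.02% (SLC7A1) to 12.2% (SLC7A5), and in KDM4B-labelled libraries from 0.56% (SLC38A2) to 9.37% (SLC7A11).

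The median profile of the 10 genes over the 6 libraries, each gene centred on its own mean of log2(FPKM + 1), was -0.52, -0.52 and -0.53 in KDM4B-labelled libraries and 0.65, 0.47 and 0.48 in vector controls. SLC3A2 and GPT2 lay nearest to it, with Euclidean distances of 0.042 and 0.067, and SLC7A5 farthest (1.69). Among the other tested genes the nearest were THBS1 (distance 0.075), E2F7 (0.077), GARS (0.077), ENTPD5 (0.077) and LOC389765 (0.085). GARS, the glycyl-tRNA synthetase gene, measured 88.6 FPKM in KDM4B-labelled libraries and 192 FPKM in vector controls. THBS1, which encodes the secreted glycoprotein thrombospondin-1, measured 4.79 to 5.12 FPKM in KDM4B-labelled libraries and 11.1 to 12.2 FPKM in vector controls. The distance uses 6 libraries in 2 groups, so genes that were about 2-fold lower with little spread between replicates lie near.

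Other amino acid transporters lay near the median of all genes. Of 51 on a list of this family 48 were in the table and 23 were tested. As deposited 13 of the 23 fell and 3 rose, near the 60.3% lower and 13.4% higher of all tested genes, with a median log2 fold change of -0.21, next to -0.22 for all tested genes; after scaling 7 fell and 8 rose, where 35.5% and 32.5% of all genes did. SLC43A1 (LAT3), which like SLC7A5 carries leucine but without a heavy chain, measured 28.4 ± 0.292 FPKM in KDM4B-labelled libraries and 85.0 ± 0.918 FPKM in vector controls (SD, n = 3 each; log2 fold change -1.55, -1.33 after scaling; limma, adjusted p = 4.29e-11). The glycine transporter gene SLC6A9 fell to 7.12 FPKM, against 26.2 FPKM in vector controls (limma, adjusted p = 2.71e-10). SLC6A6, the taurine transporter, rose to 5.57 FPKM, against 2.31 FPKM in vector controls (limma, adjusted p = 2.62e-07). SLC38A10 was at 38.5 FPKM in KDM4B-labelled libraries and 55.4 FPKM in vector controls (limma, adjusted p = 6.75e-07).

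Of 32 listed enzymes of amino acid synthesis and transamination, 28 were tested. As deposited 19 fell and 3 rose, near the shares of all tested genes (60.3% and 13.4%), and after scaling 15 fell and 7 rose, where 35.5% and 32.5% of all genes did, with a median of -0.39 and of -0.17 after scaling. SHMT2, the mitochondrial serine hydroxymethyltransferase, measured 149 FPKM in KDM4B-labelled libraries and 351 FPKM in vector controls (limma, adjusted p = 2.03e-10). PYCR1, the last step of proline synthesis, fell to 130 FPKM, against 265 FPKM in vector controls. PSAT1, a serine synthesis aminotransferase, fell to 123 FPKM, against 258 FPKM in vector controls, and CTH, which makes cysteine from cystathionine, to 3.99 FPKM, against 14.1 FPKM. All 4 fell on both scales. Those that did not pass as deposited included GLUL, glutamine synthetase, at 42.7 FPKM in KDM4B-labelled libraries and 44.1 FPKM in vector controls (log2 fold change -0.04; limma, adjusted p = 0.298), which became 0.18 and passed after scaling (adjusted p = 0.00133).

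Of 25 regulators of the amino acid response, all tested, 22 fell and 2 rose as deposited, where 60.3% and 13.4% of all tested genes did. After scaling 17 fell and 3 rose, where 35.5% and 32.5% of all genes did, and their median was -0.54, or -0.32 after scaling. ATF4 itself, chosen after its values were seen, measured 352 FPKM in KDM4B-labelled libraries and 647 FPKM in vector controls (log2 fold change -0.88, -0.65 after scaling; limma, adjusted p = 4.93e-09). TRIB3, a pseudokinase induced by ATF4, was at 40.1 FPKM in KDM4B-labelled libraries and 289 FPKM in vector controls, the largest fall on any of these lists (log2 fold change -2.82, -2.59 after scaling; limma, adjusted p = 7.75e-11). The transcription factor genes CEBPB (12.3 FPKM, against 41.4 FPKM in vector controls), CEBPG (18.4 FPKM, against 51.5 FPKM) and ATF3 (13.9 FPKM, against 53.3 FPKM) also fell on both scales. These are transcript levels, and phosphorylation of eIF2 and translation of ATF4 were not measured. The kinase gene EIF2AK4 (GCN2), also chosen afterwards, was at 20.7 FPKM in KDM4B-labelled libraries and 21.4 FPKM in vector controls and did not pass as deposited (limma, adjusted p = 0.389), with a log2 fold change of -0.04 that became 0.18 and passed after scaling (adjusted p = 0.00172).

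Genes that sense amino acids for mTORC1 showed no common direction. Of 38 tested 22 fell and 6 rose as deposited (60.3% and 13.4% of all tested genes did), and 11 fell and 12 rose after scaling (35.5% and 32.5%), with a median of -0.17, or 0.04 after scaling. MIOS, a subunit of GATOR2, measured 7.94 FPKM in KDM4B-labelled libraries and 16.5 FPKM in vector controls, and MLST8, SEC13 and LAMTOR2 were also lower on both scales. The largest change on this list, chosen after its values were seen, was the rise of GATSL2 (now CASTOR2, a relative of the arginine sensor CASTOR1) to 5.57 FPKM, against 2.09 FPKM in vector controls (log2 fold change 1.08; limma, adjusted p = 1.33e-07). Glutathione synthesis, which uses the cystine that SLC7A11 brings in, was mixed as well: of 11 genes 8 fell and 1 rose as deposited (60.3% and 13.4% of all tested genes did), and 3 fell and 2 rose after scaling (35.5% and 32.5%), with a median of -0.23, or -0.01 after scaling. The catalytic subunit gene GCLC rose to 22.7 FPKM, against 8.55 FPKM in vector controls (log2 fold change 1.31; limma, adjusted p = 7.44e-10), whereas its modifier subunit GCLM fell to 9.05 FPKM, against 16.3 FPKM in vector controls (limma, adjusted p = 4.27e-07). GGT1 was at 14.8 FPKM in KDM4B-labelled libraries and 29.8 FPKM in vector controls, and GSS at 61.1 FPKM, against 83.6 FPKM in vector controls. The libraries behind all of these lists differed in their ribosomal RNA share, whose part in the results was not tested; dividing by the FPKM sum without ribosomal RNA left the calls of the 10 genes as they were after median-of-ratios scaling.

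**Figure D5:**
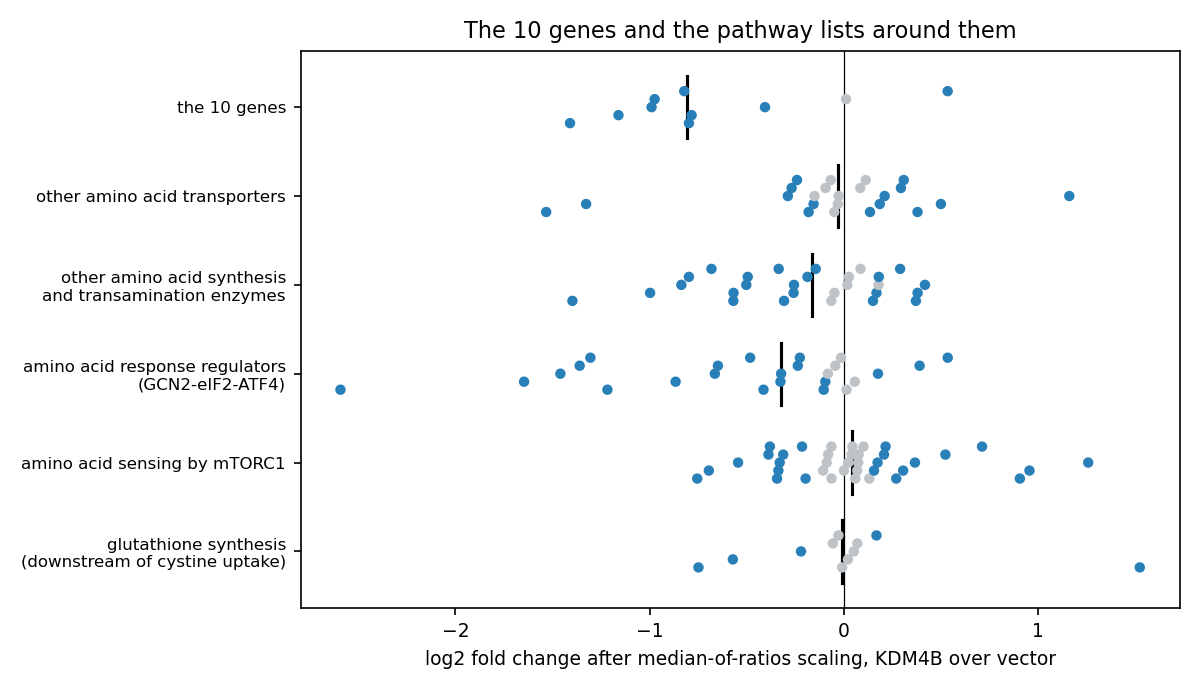
Log2 fold change after median-of-ratios scaling, KDM4B-labelled over vector libraries, for the 10 genes and 5 lists around them; each point is a gene, blue points passed the test, grey points did not, and black bars are medians (-0.81 for the 10 genes). The largest fall is TRIB3, and GCLC is the rise on the right of the glutathione list.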

How the data were processed

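Per the file headers, the authors deposited gene FPKM, given to 2 decimals, and for splicing events read counts that were not normalized. The submitters' processing notes list HISAT, StringTie, Cufflinks, GRCh38 and hg38, with neither role nor version; the sources used here do not give the splicing caller. FPKM carry no counts, so limma 3.58.1 in R 4.3.3, with its trend option, tested log2(FPKM + 1) of genes whose mean reached 1 FPKM, at an adjusted p of 0.05. Gene fold changes are differences of log2(FPKM + 1), so those of low genes are understated. Event counts were tested with edgeR 4.0.16 (glmQLFit, glmQLFTest), with at least 10 reads in each library.

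Each SE count is inclusion plus skipping reads and each MXE count the sum of both exons, so the sum of 2 SE counts minus the MXE count is the skipping count multiplied by 2. Of 19482 such values 99.98% were even and not negative, and both forms were recovered for 6027 SE and 3245 MXE events. The form test modelled each library's total, the form and the form's interaction with group, and needed 10 reads of each form summed over libraries. Replicates differed by more than sampling noise (chi-square per degree of freedom 2.43 to 3.01 within groups and 29.6 to 35.1 between them). On simulated data with known changes among 12148 genes, limma recovered 90.0% of log2 changes of 0.5 and 97.0% of changes of 1.

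The member genes, lists and tests were chosen with earlier results of these data known. Named genes are the 10 members, KDM4B, up to 4 genes per list with the lowest p, and the 5 genes nearest to the members' profile; GPT, GLUL, ATF4, EIF2AK4 and GATSL2 were added after their values were seen. The planned form test had assumed that every event came with separate counts of its forms. Alternatives were DESeq2 1.42.0 for the splice forms, another pseudocount, filters, scalings and variance model, edgeR on each gene's most-read SE event, leaving out libraries 1 at a time, and a replicate block. The retained intron table was not used. Sequences are from RefSeq.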

Additional observations from a re-analysis of the deposited data

How the results depend on the processing

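The counts of 9 lower and 1 higher member genes were the same without any 1 library and under the other pseudocount, filters and variance model. Both scalings and edgeR on the most-read SE event gave 8 lower and 1 higher. SLC38A2 did not pass in either direction under these 3. Its log2 fold change was 0.011 with median-of-ratios scaling and 0.016 with scaling to the FPKM sum without ribosomal RNA (limma, adjusted p = 0.800 and 0.704). In edgeR it was 0.043 (adjusted p = 0.584). Over all genes 7323 were lower and 1628 higher as deposited, 4305 and 3939 with median-of-ratios scaling, 4246 and 3995 without ribosomal RNA, and 1960 lower in edgeR among 8553 genes. EdgeR tested fewer genes of each list, and 22.9% of all genes were lower there. Of the 23 other transporters 7 were lower and 8 higher under either scaling. At a minimum of 5 FPKM 8 of 14 were lower and 1 higher, with no filter 7 of 47 were higher, and in edgeR 5 of 17 were lower. Higher synthesis enzymes numbered 7 of 28 under either scaling, and lower response regulators 7 of the 15 tested in edgeR. For mTORC1 sensing 11 of 38 were lower under either scaling and 8 of 33 in edgeR. There 12 were higher under median-of-ratios scaling and 13 without ribosomal RNA. For glutathione synthesis 3 of 11 were lower and 2 higher under either scaling, and 2 of 9 lower and 2 higher in edgeR. The SLC1A4 to SLC1A5 difference was -0.099 with a pseudocount of 0.1. The causes were not tested.

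Replicate numbers 1 and 2 occur in both groups, but the labels do not say what a number marks. Same-numbered libraries deviated with correlations of -0.02 and 0.13, where all pairs across the groups ran from -0.15 to 0.13. With so few libraries these values cannot tell whether a number marks a shared culture or batch. With a replicate block, which rests on these 2 pairs, 9 member genes were lower and 1 higher, over all genes 6877 were lower and 1582 higher, and the SE and MXE form calls over all events dropped to 13 and 10. Without vector replicate 1 the SE form calls over all events numbered 10, and without vector replicate 3 they numbered 20, against 74 with all libraries. Depth limits the form tests of ASNS and SLC3A2, which rest on 6 to 42 skipping reads per library.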
